A study of Mus musculus with 23 samples.

Results

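The genes described here repair double-strand breaks and crosslinks in DNA. They are a list of 41 mouse genes of homologous recombination, the Fanconi pathway and end joining, among 18217 genes with a probe on the array. The list was made by name and not by a cut on any measured value, though earlier results of these data were known. A probe was found for 40 of the 41, and none for Mdc1, an adaptor protein of break signalling. All 40 were well above background in all 22 samples, so none entered or left through the filter on dim probes, and they are part of the 13765 genes tested.

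RNA was hybridised to 23 one-colour Agilent whole mouse genome arrays. The samples comprised 9 lymphoma lines of B cells that had been derived from the tumour-bearing spleens of Atm knockout (KO) mice and kept in suspension. They were set against 6 tumour-free spleens of Atm KO mice and 7 spleens of Atm wild-type (WT) mice. Every mouse, the WT controls included, also lacked Cd3e, part of the receptor by which T cells see antigen, and all were of mixed C57BL/6 x 129 strain. The KO spleens were all from females, the WT spleens were from 4 males and 3 females, and the sex of the lines and the ages of the mice were not given. The study's own count is 10 lines, but 1 of those arrays is titled as a repeat, and line 8 here is the average of its pair of arrays. The lines are cultured cells and the spleens whole tissue, so culture, cell type and tumour cannot be told apart in any comparison between them.

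Atm is the kinase that signals double-strand breaks. Homologous recombination copies an intact sister chromatid: the ends are resected, Brca1, Palb2 and Brca2 prepare the single strand for the search, and the joined molecules are then resolved. It works in S and G2 phase. The Fanconi pathway unhooks crosslinks between the strands, through a core complex that attaches ubiquitin to the Fancd2 and Fanci pair. Classical end joining seals broken ends through the Ku heterodimer and ligase 4 at any phase, and B and T cells need it to assemble antigen receptor genes, while alternative end joining uses short matching stretches. Many recombination genes are transcribed with the cell cycle, and for this reason the genes are set below against an index of proliferation.

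Levels are log2 values relative to the 75th percentile of the array, and a difference of 1 is a doubling. A gene was called when its adjusted p in limma, with Benjamini-Hochberg adjustment over all tested genes, was under 0.05. The labels do not say which part of Atm was deleted, nor is it known here whether its probes lie in that part. Of its 2 probes, the first read -4.47, -4.07 and -3.27 (lowest, median and highest) in the 9 lines and -3.91, -3.56 and -3.49 in the 6 KO spleens, against -2.11, -1.85 and -1.39 in the 7 WT spleens. The second read -4.38, -3.11 and -2.77 in the lines and -2.69, -2.43 and -2.07 in KO spleens, against -0.66, -0.14 and 0.00 in WT spleens. Neither probe overlapped between Atm KO samples and WT spleens. The probe of Cd3e was well above background in all samples, at -3.30, -2.47 and -1.22 in the lines, -4.65, -4.19 and -3.86 in KO spleens and -4.63, -4.12 and -3.96 in WT spleens, and since the deleted part is not given for Cd3e either, this checks no label. The 75th percentile by which the arrays were scaled lay between 492 and 790 for lines, 669 and 898 for KO spleens, and 570 and 830 for WT spleens. The arrays lay on 6 slides, of which 1 held lines 7, 8 and 9 and no spleen.

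**Figure D1:**
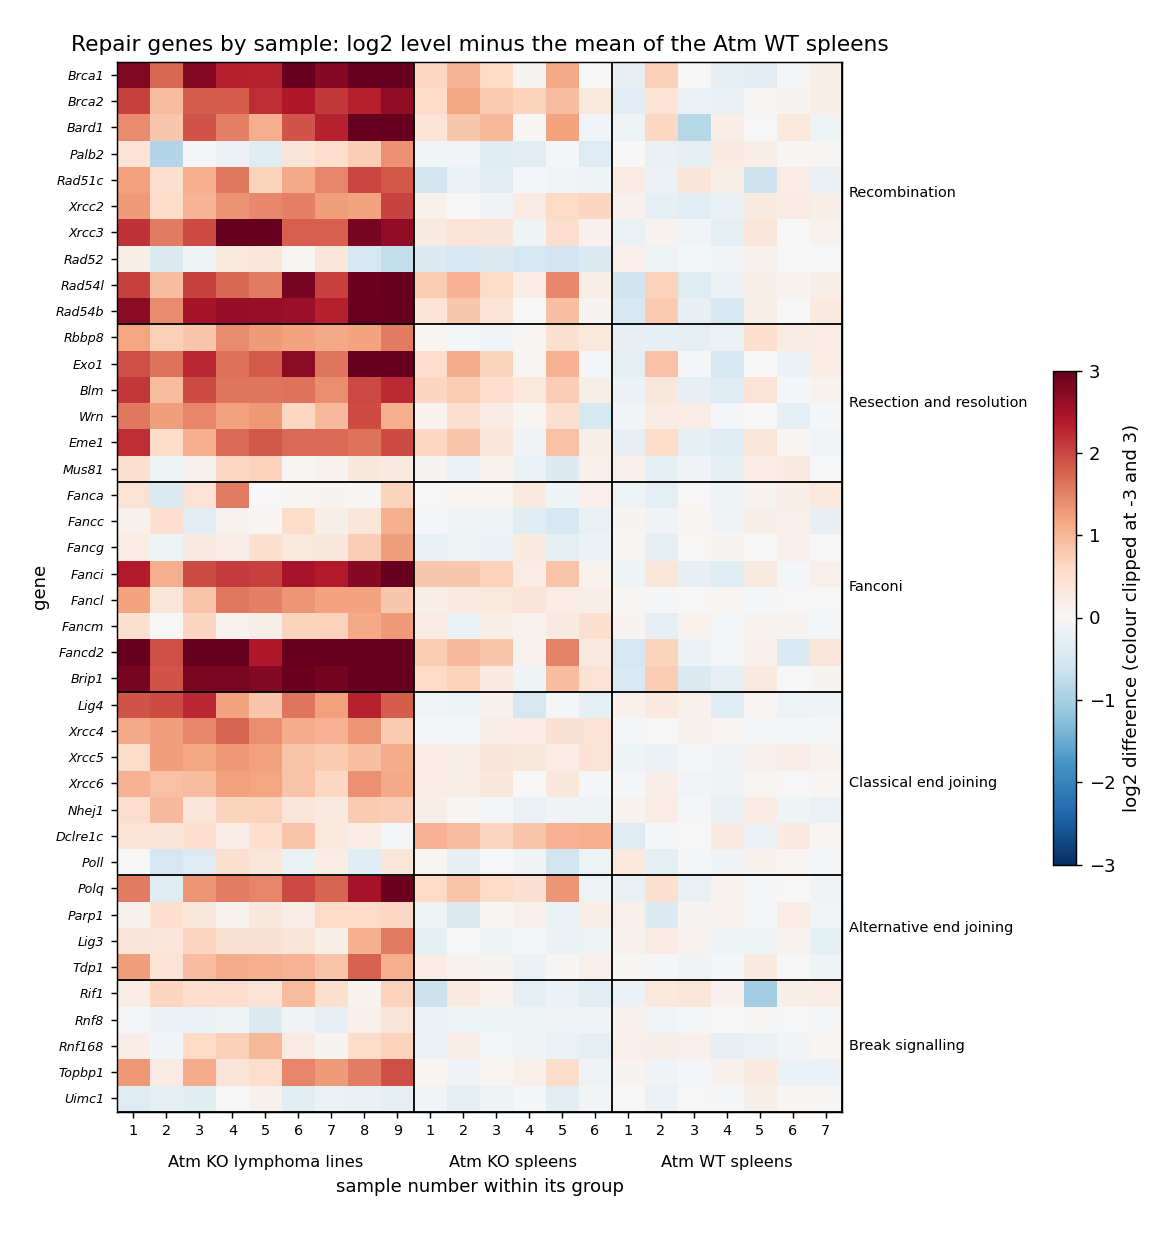
The map shows the log2 level of the 40 measured repair genes (rows, by branch) in each sample (columns), minus the mean of the 7 WT spleens, with red for higher and blue for lower and colours clipped at -3 and 3. The lines are red over most rows of recombination, resection and Fanconi genes, line 2 less than the others, and Dclre1c is red in the 6 KO spleens.

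In the lymphoma lines most repair genes stood above both groups of spleens. Against KO spleens 34 of the 40 were higher, 1 was lower and 5 were not called. Over all tested genes 41.5% were higher, 28.9% lower and 70.4% either. The median log2 difference of the repair genes was 0.99, beside 0.18 over all genes tested. Against WT spleens 32 were higher, 1 was lower and 7 were not called, where 40.3% of all genes were higher, 30.9% lower and 71.2% either. The median was 1.10, beside 0.13 over all genes. These comparisons share the 9 lines, and 31 genes were called higher in both. In 18 of the 40 every line lay above every KO spleen (24% of all genes), and in 23 every line lay above every WT spleen (23.8% of all genes).

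Markers of other cell types differed between the same groups. The 9 tested macrophage markers fell in the lines against both groups of spleens, as did the 10 neutrophil and the 10 natural killer markers and 10 of 11 erythroid markers. The mean level of the macrophage markers was -6.58 to -4.64 in the lines, against 1.84 to 2.65 in KO spleens and 2.12 to 2.79 in WT spleens. That of the neutrophil markers was -8.17 to -5.44 in the lines, against 1.94 to 4.97 and 1.56 to 5.41 in the KO and WT spleens. The erythroid mean was -5.67 to -4.56 in the lines, against 0.25 to 3.33 and 0.17 to 2.59, and the natural killer mean -6.96 to -4.91, against 1.44 to 2.11 and 2.02 to 2.49. Against KO spleens 6 of 9 T cell markers fell and 3 rose, 7 of 8 megakaryocyte markers fell, and 8 of 10 markers of stroma and endothelium fell and 1 rose. Not well above background in any line were the macrophage markers Mertk and Fcgr1, the neutrophil markers Mmp9, Lcn2 and Retnlg, the erythroid markers Epb42 and Rhag, and the natural killer markers Gzmb, Klrk1 and Eomes. Other markers of the same lists were well above background in every line. These were 4 of 9 macrophage, 1 of 10 neutrophil, 3 of 11 erythroid and 2 of 10 natural killer markers. The 10 B cell markers, among them Cd79a and Pax5, were above background in every sample, with means of 3.36 to 4.05 in the lines, 3.32 to 3.83 in KO spleens and 3.34 to 3.91 in WT spleens. In bulk RNA fewer cells of a type and less RNA per cell cannot be told apart. The part of these cell types in the differences of the repair genes was not tested.

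Recombination genes had the largest median difference of the 6 branches in both comparisons. Against KO spleens 9 of 10 were higher, with a median of 1.41, and against WT spleens 8 of 10, with a median of 1.96. Brca1, which with Bard1 forms a ubiquitin ligase that steers breaks toward recombination, read 1.13, 2.15 and 3.17 (lowest, median, highest) in the lines, against -0.58, 0.02 and 0.55 in KO spleens and -0.90, -0.65 and 0.12 in WT spleens. No line reached down to either group of spleens. The log2 difference was 2.16 ± 0.25 against KO spleens (SE; 4.46-fold; limma adjusted p = 1.11e-07) and 2.73 ± 0.24 against WT spleens (6.65-fold; limma adjusted p = 1.2e-09).

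Rad54b, a motor protein of recombination, read -0.42, 0.77 and 1.28 in the lines, against -1.82, -1.42 and -0.93 in KO spleens and -2.36, -1.86 and -1.05 in WT spleens. Its groups did not overlap, with differences of 2.10 ± 0.23 against KO and 2.54 ± 0.22 against WT spleens (SE). Xrcc3, a partner of Rad51c in strand exchange, read -0.35, 0.24 and 1.41 in the lines, against -2.04, -1.59 and -1.40 in KO spleens and -2.20, -1.92 and -1.56 in WT spleens. Its differences of 2.07 ± 0.23 and 2.34 ± 0.22 came without overlap. Its relatives were higher by less, Rad51c by 1.50 and Xrcc2 by 1.05 against KO spleens, and by 1.28 and 1.30 against WT spleens. The other probe of Xrcc2 had means of -2.54 in the lines, -3.12 in KO spleens and -3.64 in WT spleens. Rad54l, the relative of Rad54b, was higher by 1.50 and 2.20. Brca2, which binds single-stranded DNA at resected ends, was higher by 1.30 and 2.04, and Bard1 by 1.32 and 1.89.

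The calls of Palb2 and Rad52 differed between comparisons or settings. Palb2, the bridge between Brca1 and Brca2, was not called in either comparison, at 0.43 ± 0.23 against KO and 0.22 ± 0.22 against WT spleens (SE). The lines spanned -4.17 to -1.91 for it, a wider range than the -3.67 to -3.32 of KO spleens and the -3.59 to -3.02 of WT spleens. It was called higher after quantile normalisation, by 0.85 against KO and 0.64 against WT spleens (limma adjusted p = 0.00231 and 0.0128), and against KO spleens without line 2, by 0.56 (limma adjusted p = 0.0161). Rad52, which anneals single strands, was higher against KO spleens by 0.41 ± 0.15 (limma adjusted p = 0.0185) and stood at -0.06 ± 0.14 against WT spleens (limma adjusted p = 0.714).

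Resection and resolution genes were higher in 6 of 6 against KO spleens and in 5 of 6 against WT spleens, with medians of 1.13 and 1.43. Exo1, the nuclease that lengthens resected tracts, read 1.44, 1.76 and 3.65 in the lines, against -0.23, 0.43 and 0.95 in KO spleens and -0.69, -0.23 and 0.71 in WT spleens. The groups did not overlap, and the differences were 1.73 ± 0.31 and 2.28 ± 0.30 (SE). The helicase gene Blm was higher by 1.20 and 1.72, the helicase gene Wrn by 1.13 and 1.27, and Rbbp8, which starts resection, by 1.05 and 1.17. Eme1 and Mus81 form one endonuclease that cuts joined molecules. Eme1 was higher by 1.14 and 1.60, while Mus81 was higher by 0.37 against KO spleens and stood at 0.29 ± 0.13 against WT spleens (SE), with a limma adjusted p of 0.0528.

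The Fanconi genes were uneven. Against KO spleens 7 of 8 were higher and against WT spleens 6 of 8, with medians of 0.69 and 0.85, but single genes ran from 0.25 to 2.44 and from 0.29 to 3.19. Fancd2, a target of the core complex, had the largest difference of the 40 genes in both comparisons. It read -1.96, -0.73 and 0.20 in the lines, against -3.77, -3.07 and -2.40 in KO spleens and -4.41, -3.91 and -3.21 in WT spleens. The lowest line lay above the highest spleen, and the differences were 2.44 ± 0.29 (SE; 5.42-fold; limma adjusted p = 1.78e-07) and 3.19 ± 0.28 (9.10-fold; limma adjusted p = 1.22e-09). The 2 arrays of line 8 differed by 1.12 for Fancd2, the most of any of the 40 genes.

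Brip1, a helicase that binds Brca1, read 0.14, 1.11 and 1.84 in the lines, against -1.87, -1.24 and -0.82 in KO spleens and -2.20, -1.72 and -0.98 in WT spleens. Its differences were 2.43 ± 0.23 and 2.89 ± 0.22 (SE). Fanci, the partner of Fancd2, was higher by 1.69 and 2.28. The core complex moved less. Fancl, its ubiquitin ligase, was higher by 0.86 and 1.12, Fancg by 0.52 and 0.41, and the translocase gene Fancm by 0.40 and 0.57. Against KO spleens Fancm was not called with the slide as a block, at 0.13 (limma adjusted p = 0.373), or without the 3 lines of the lines-only slide, at 0.17 (limma adjusted p = 0.26). Fancc was higher by 0.52 against KO spleens and stood at 0.29 ± 0.14 against WT spleens. Fanca was called in neither, at 0.25 ± 0.20 and 0.32 ± 0.19 (SE), but in both as the mean of its probes, at 0.65 and 0.85 (limma adjusted p = 0.0497 and 0.00909). That mean takes in a dim probe, well above background in only 8 of 22 samples. Its mean level was -5.92 in the lines, -6.98 in KO spleens and -7.31 in WT spleens. One of the 3 probes of Fancg, the dimmest, went the other way, at -0.54 against KO and -1.03 against WT spleens, and the mean over its probes was not called against either group, at 0.25 and -0.03. Fancg was also not called after quantile normalisation, at 0.27 and 0.16, or with the slide as a block, at 0.30 and 0.23.

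Genes of classical end joining were higher without overlap in most cases. Against KO spleens 5 of 7 were higher, 1 was lower and 1 was not called, with a median of 0.72. Against WT spleens 6 of 7 were higher, with a median of 1.02. Lig4, the ligase of this route, read -0.02, 0.97 and 1.47 in the lines, against -1.36, -0.96 and -0.73 in KO spleens and -1.21, -0.80 and -0.56 in WT spleens. The groups did not overlap, and the differences were 1.83 ± 0.19 and 1.67 ± 0.18 (SE), the largest of the branch. Its partner Xrcc4 read 0.68, 1.15 and 1.66 in the lines, against -0.16, 0.13 and 0.37 in KO spleens and -0.15, -0.12 and 0.03 in WT spleens, higher by 1.04 ± 0.12 and 1.25 ± 0.12. The Ku subunit genes Xrcc5 and Xrcc6 were higher by 0.72 and 0.85 against KO spleens and by 1.02 and 1.03 against WT spleens. Nhej1, which bridges the ends with Xrcc4, was higher by 0.64 and 0.60. In these 5 genes no line overlapped either group of spleens. Of all tested genes 24% were higher without overlap against KO spleens and 23.8% against WT spleens. Poll, a gap-filling polymerase, was not called, at 0.17 ± 0.15 and 0.00 ± 0.15. Dclre1c, the Artemis nuclease that opens hairpin ends in V(D)J recombination, was lower in the lines than in KO spleens by -0.57 ± 0.13 (limma adjusted p = 0.000405) and higher than in WT spleens by 0.37 ± 0.12 (limma adjusted p = 0.00907). Its probes disagreed, as described with the spleens.

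In alternative end joining all 4 genes were higher in both comparisons. Tdp1, which clears proteins trapped on DNA ends, was higher by 0.98 and 1.05, Lig3 by 0.74 and 0.61, and Parp1, a sensor of breaks, by 0.44 and 0.38. Parp1 stood at 0.04 against KO and -0.02 against WT spleens after quantile normalisation, and was not called against WT spleens without the lines-only slide, at 0.27 (limma adjusted p = 0.0511). Polq, the polymerase of this route, read -3.36, -1.44 and -0.06 in the lines, against -3.15, -2.42 and -1.66 in KO spleens and -3.22, -3.05 and -2.52 in WT spleens. Line 2 lay below all 13 spleens and the other 8 lines above all WT spleens. The differences were 1.02 ± 0.33 and 1.63 ± 0.32 (SE; limma adjusted p = 0.00936 and 9.93e-05), and the first was not called without the 3 lines of the lines-only slide, at 0.64 (limma adjusted p = 0.0689).

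Break signalling had the smallest median of the branches, 0.55 against KO and 0.45 against WT spleens. Topbp1, an activator of the kinase Atr, was higher by 0.99 ± 0.21 and 1.09 ± 0.20, Rif1, which shields ends from resection, by 0.68 and 0.50, and the ubiquitin ligase gene Rnf168 by 0.55 and 0.45. Rif1 was not called against WT spleens after quantile normalisation, at 0.32 (limma adjusted p = 0.127). Rnf8, the ligase that acts before Rnf168, was not called, at 0.04 ± 0.10 and -0.08 ± 0.09. Its other probe had a mean of -1.49 in the lines (-1.94 to -0.66), against -1.87 in KO spleens (-2.04 to -1.78) and -1.76 in WT spleens (-2.14 to -1.48). Uimc1, which brings a Brca1 complex to ubiquitin, stood at -0.05 ± 0.09 against KO spleens and was lower by -0.21 ± 0.08 against WT spleens (limma adjusted p = 0.0268). After quantile normalisation Uimc1 was also called lower against KO spleens, at -0.42, and without the lines-only slide it was not called against WT spleens, at -0.20 (limma adjusted p = 0.0641). By the probes used, no gene of this branch was free of overlap in either comparison. The other probe of Rif1 did not overlap. It read 0.09 to 1.08 in the lines, against -0.30 to -0.05 in KO spleens and -0.53 to 0.02 in WT spleens.

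**Figure D2:**
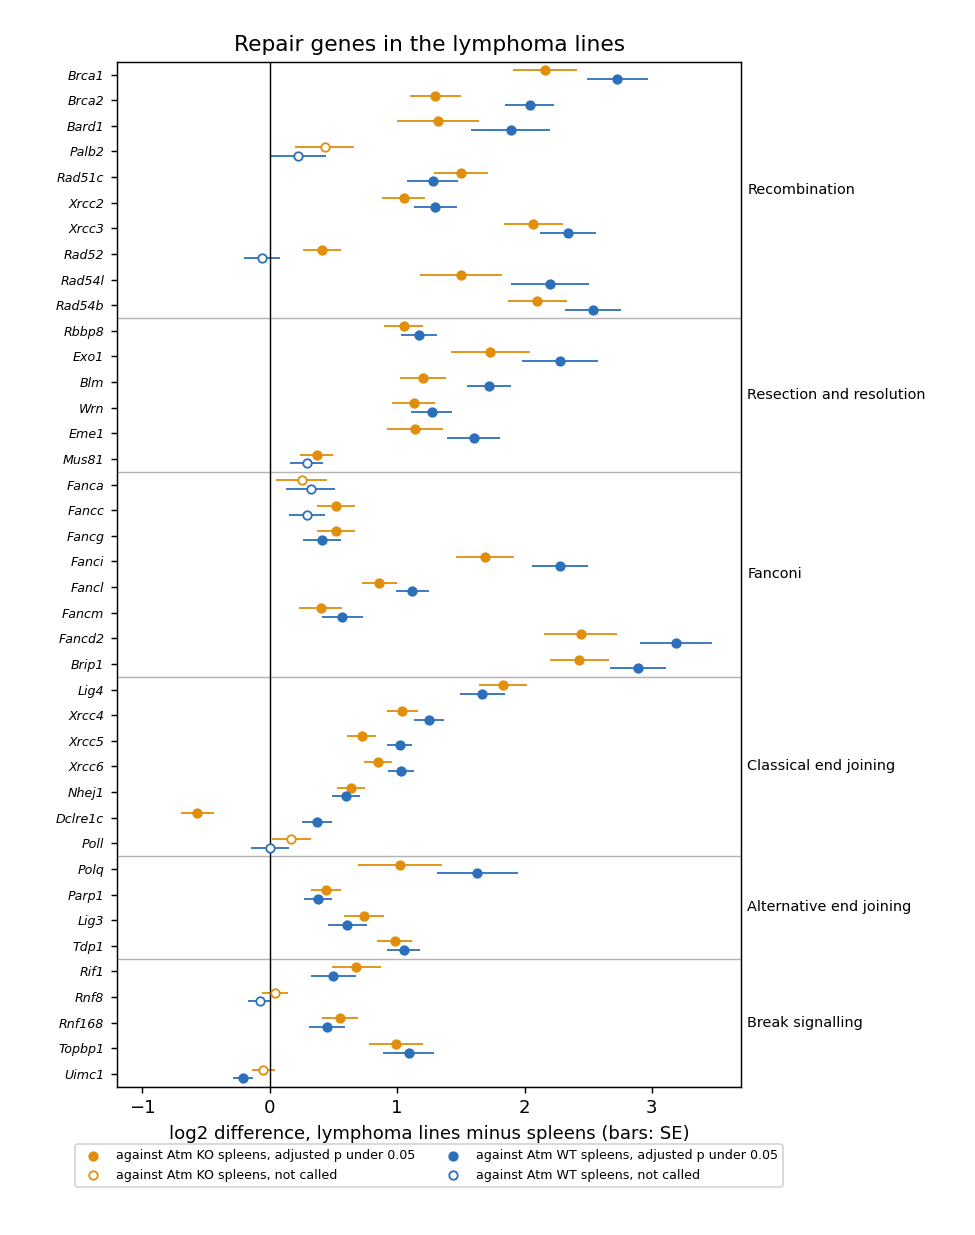
Each gene's log2 difference between the lymphoma lines and KO spleens (orange) or WT spleens (blue) is plotted with its SE, and filled points were called at a limma adjusted p under 0.05. Fancd2, Brip1 and Brca1 lie farthest to the right, classical end joining genes from Xrcc4 to Nhej1 lie between 0.60 and 1.25, and Dclre1c has opposite signs.

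Most directions were the same within slides. On the 5 slides that held lines and spleens, 29 to 35 of the 35 genes called against KO spleens kept their direction, and 31 to 33 of the 33 called against WT spleens. Over all called genes the share was 95.4% to 98.4%, so these counts say nothing particular of the repair genes. On the slide of line 2, 29 of 35 kept their direction against KO spleens, where 96% of all called genes did, and the median difference was 0.32 against KO and 0.49 against WT spleens. The size depended on the scaling. Centring each array on its median moved the median of all genes to 0.77 against KO spleens and 0.71 against WT spleens. Then 39 and 40 of the 40 repair genes were called higher, with medians of 1.58 and 1.68. Of all tested genes 80.3% and 80.1% were then called in either direction.

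Promoter sequences were read from RefSeq (build GRCm38.p6), 250 bases before to 50 after the start of a gene, to show which repair genes carry letters known from cell cycle genes. A promoter was matched for 33 of the 41 genes, Fancd2 not among them. The letters searched on both strands were those of E2F sites (TTTCCCGC, TTTCGCGC, TTTGCCGC or TTTGGCGC), of the cell cycle homology region (TTTGAA) and of the CCAAT box (CCAAT), motifs known from promoters of S phase and mitosis genes. Windows with the E2F letters, in capitals, run 5′ to 3′ along the strand of the gene, and GCGGGAAA and GCGCGAAA are such letters read on the other strand. They are in Brca2 (chr5:150522423-150522490, plus strand), Bard1 (chr1:71103144-71103211, minus strand), Fancg (chr4:43010316-43010383, minus strand), Topbp1 (chr9:103305168-103305235, plus strand) and Xrcc6 (chr15:82016293-82016360, plus strand), before the start of each gene.
Brca2: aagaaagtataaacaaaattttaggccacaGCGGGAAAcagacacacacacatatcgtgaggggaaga
Bard1: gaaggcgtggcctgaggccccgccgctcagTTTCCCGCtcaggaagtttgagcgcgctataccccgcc
Fancg: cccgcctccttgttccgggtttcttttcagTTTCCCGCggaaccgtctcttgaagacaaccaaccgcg
Topbp1: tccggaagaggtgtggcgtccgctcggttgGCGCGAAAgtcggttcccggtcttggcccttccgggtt
Xrcc6: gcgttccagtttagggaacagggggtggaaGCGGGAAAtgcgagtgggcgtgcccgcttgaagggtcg

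Brca1, Brip1, Rad54l and Polq are shown because they were called for a rise with proliferation among the lines, as described next, and had none of the E2F letters. Fanci, called likewise, had none of the motifs searched. Brca1 (chr11:101552007-101552071, minus strand) and Rad54l (chr4:116123706-116123770, minus strand) each had 1 CCAAT box. Brip1 had 3 of them on the opposite strand, as ATTGG, within its window (chr11:86201194-86201322, minus strand). Polq had the cell cycle letters, as TTCAAA on the opposite strand, 242 bases before its start (chr16:37011536-37011579, plus strand). The capitals mark these letters.
Brca1: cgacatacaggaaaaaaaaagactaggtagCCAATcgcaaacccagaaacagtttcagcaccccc
Brip1: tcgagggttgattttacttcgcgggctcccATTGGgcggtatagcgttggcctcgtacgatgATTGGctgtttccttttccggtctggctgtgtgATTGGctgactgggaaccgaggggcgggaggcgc
Rad54l: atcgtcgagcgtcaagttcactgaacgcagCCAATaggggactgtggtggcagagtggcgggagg
Polq: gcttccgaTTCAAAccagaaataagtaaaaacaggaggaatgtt

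Over the 33 genes with a promoter, 7 (21.2%) held E2F letters, with Rad51c and Mdc1 beside those above, where 2.6% of all 27025 genes with a promoter did, 4.27% of the tested genes and 27.5% of the genes of the proliferation index. Of 53 other genes of these pathways with a promoter, from the list described last, 2 (3.77%) held E2F letters. The CCAAT box was in 15 (45.5%), beside 41.1% of all genes and 42.3% of the tested genes. The cell cycle letters were in 6 (18.2%), beside 20.2% and 14.9%. A match describes these letters only.

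To set the repair genes against proliferation, an index was taken as the mean log2 level of 47 genes that are no members, 24 of mitosis and 23 of DNA replication. It read 2.52, 3.38 and 4.13 (lowest, median, highest) in the lines, against 1.15, 1.67 and 2.01 in KO spleens and 0.60, 0.88 and 1.70 in WT spleens. No line overlapped a spleen. Against KO spleens the index of the lines was higher by 1.77 (exact permutation test, two-sided, p = 2e-04), and against WT spleens by 2.41 (exact p = 8.74e-05), the smallest p these designs allow. KO spleens were above WT spleens by 0.64 (exact p = 0.0146), and above the 3 female WT spleens by 0.57 (exact p = 0.0357, where the smallest possible is 0.0119). The index and the repair genes come from the same arrays and share their scaling.

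Among the 9 lines 6 repair genes rose with the index, and none fell, where 0.726% of all tested genes rose, 0.0726% fell and 0.799% did either. The slopes, in log2 level per unit of index, were 1.84 ± 0.28 for Polq, 1.66 ± 0.24 for Rad54l, 1.40 ± 0.23 for Fancd2, 1.23 ± 0.16 for Brca1, 1.22 ± 0.21 for Fanci and 1.01 ± 0.16 for Brip1 (SE, n = 9; limma adjusted p 0.0232 to 0.0385). Over the 40 genes the median slope was 0.50, beside -0.04 over all genes tested, and 33 of the 40 slopes were positive. The calls rest on line 2, which had the lowest index. Without it no repair gene and no other gene was called, while the slopes of the 6 genes stood at 0.85 to 1.81 with limma adjusted p of 0.0596 to 0.112. No gene was called with the slide as a block, without the 3 lines of the lines-only slide or without lines 2 and 9, the farthest from the median index.

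Correlations with the index over the 9 lines were taken gene by gene, for 13752 genes, with exact permutation tests adjusted over all of them. Brca1 had r = 0.97 (exact two-sided permutation p = 0.000152, adjusted 0.0289) and rho = 0.88 (exact p = 0.00308, adjusted 0.125). Without the 2 lines farthest from the median index its r was 0.87. Brip1 had r = 0.96 (exact p = 0.000551, adjusted 0.0459) and rho = 0.87 (exact p = 0.00451, adjusted 0.135), with r = 0.84 without those lines. Rad54l had r = 0.93 (exact p = 0.000485, adjusted 0.0439) and rho = 0.90 (exact p = 0.00203, adjusted 0.105), with r = 0.79 without them. Fancm had r = 0.92 (exact p = 0.000149, adjusted 0.0288) and rho = 0.88 (exact p = 0.00308, adjusted 0.125), with r = 0.89 without them. These 4 were the members that passed on r, of 185 genes in all, and no member passed on rho after adjustment. The other probe of Fancm had a slope of -0.01, beside 0.88 for the probe used.

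The branches had different median correlations with the index over the 9 lines. The median r was 0.91 over the 8 Fanconi genes (0.15 to 0.96) and 0.86 over the 10 recombination genes (-0.43 to 0.97). It was 0.74 over the 4 genes of alternative end joining (0.29 to 0.93). Over the 6 of resection and resolution it was 0.58 (0.18 to 0.88), and over the 5 of break signalling 0.45 (-0.21 to 0.89). Over the 7 genes of classical end joining it was -0.21, with a range of -0.43 for Xrcc4 to 0.39 for Xrcc6, and the median slope was -0.10. Without lines 2 and 9 the order was another one. The median r was then 0.69 for alternative end joining, 0.655 for Fanconi, 0.53 for recombination, 0.13 for resection and resolution, 0.03 for classical end joining and -0.12 for break signalling. Single genes moved far, Lig4 to 0.85 and Xrcc2, at 0.74 over all lines, to -0.42. Line 2 had the lowest of the 9 levels of Brca1 (1.13), Fancd2 (-1.96) and Polq (-3.36), yet for Xrcc4 it read 1.15, the median of the lines, and for Lig4 it read 1.10, above the median. Line 9, with the highest index, had the highest Brca1 (3.17) and Polq (-0.06) and the lowest Xrcc4 (0.68). The difference between branches was described and not tested. The spread among the lines followed the same order in part, with a median SD of 0.54 for recombination and 0.46 for Fanconi genes, against 0.25 for classical end joining and 0.25 for break signalling. The 2 arrays of line 8 differed by 0.59 for Lig4, 0.39 for Xrcc4, 0.37 for Nhej1, 0.46 for Dclre1c and 0.56 for Poll. The SDs of these genes among the lines were smaller, at 0.50, 0.28, 0.23, 0.25 and 0.38. For Xrcc5 and Xrcc6 the arrays differed by 0.18 and 0.16, below SDs of 0.25 and 0.24. Fancd2 (1.12 beside 0.70) and Brip1 (0.69 beside 0.49) also exceeded theirs. A difference between 2 arrays and an SD over 9 lines are unlike measures, and the differences come from 1 pair of arrays. Which spread is the larger therefore cannot be read from these values. The part of such differences in the r was not tested.

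**Figure D3:**
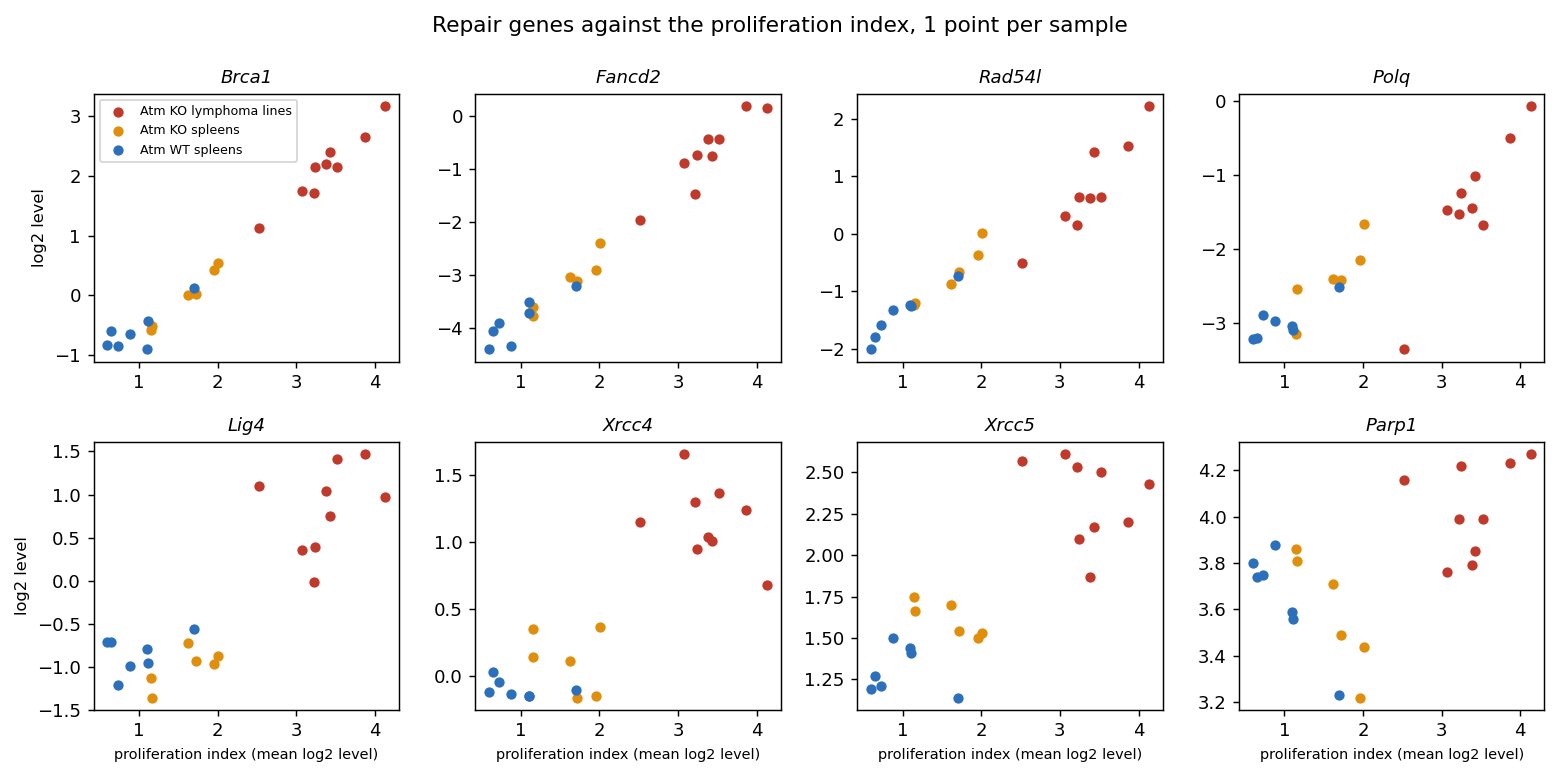
Log2 level of 8 repair genes (vertical axes) is plotted against the proliferation index (horizontal axes), with 1 point per sample (lines red, KO spleens orange, WT spleens blue). Brca1, Fancd2, Rad54l and Polq climb with the index among the 9 lines (r of 0.92 to 0.97), while Lig4, Xrcc4 and Xrcc5 are higher in the lines than in the spleens with r of 0.33, -0.43 and -0.28 among the lines.

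Within the 13 spleens, with genotype and sex in the fit, 15 repair genes rose with the index and 1 fell, where 9.6% of all genes rose, 6.31% fell and 15.9% did either. The risers were 6 of 10 recombination genes (Brca1, Brca2, Bard1, Xrcc3, Rad54l and Rad54b), 4 of 6 of resection and resolution (Exo1, Blm, Wrn and Eme1), 3 of 8 Fanconi genes (Fancd2, Fanci and Brip1), Xrcc6 and Polq. Exo1 had the steepest slope, 1.19 ± 0.13 per unit of index (SE; limma adjusted p = 0.000196), before Rad54l at 1.11 ± 0.12, Fancd2 at 1.11 ± 0.17 and Rad54b at 1.05 ± 0.10. Parp1 fell by 0.57 ± 0.09 per unit (limma adjusted p = 0.00203). It read 3.22 to 3.86 in KO spleens, against 3.23 to 3.88 in WT spleens. Its slope was -0.59 with the slide as a block (limma adjusted p = 0.0671). The median slope of the 40 genes was 0.08, beside -0.07 over all genes. Within KO and within WT spleens the median r with the index was 0.86 and 0.63 for recombination. It was 0.92 and 0.60 for resection and resolution, and -0.14 and -0.24 for Fanconi genes. For classical end joining it was 0.05 and -0.01, for alternative end joining 0.14 and 0.08, and for break signalling 0.36 and -0.25.

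Markers of cell types moved with the index in the spleens. Of the marker lists, 9 of 10 neutrophil, 5 of 11 erythroid and 4 of 9 macrophage markers rose with it, and 7 of 10 B cell markers fell. The mean neutrophil level was 1.94 to 4.97 in KO spleens, against 1.56 to 5.41 in WT spleens, and the WT spleen with the highest index (1.70) had the highest neutrophil mean. The part of these cells in the slopes was not tested. Without that WT spleen 9 repair genes rose and 1 fell (5.53% of all genes in either direction), and with the slide as a block 9 rose (6.06%).

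For the 6 genes called in both, the slopes within lines and within spleens were those of Brca1 (1.23 and 0.99), Rad54l (1.66 and 1.11), Fanci (1.22 and 0.70), Fancd2 (1.40 and 1.11), Brip1 (1.01 and 0.96) and Polq (1.84 and 0.80). Fancg and Fancm had positive slopes in the lines (0.77 and 0.88) and negative ones in the spleens (-0.32 and -0.29), none of them called. Whether a slope differs between lines and spleens was not tested.

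**Figure D4:**
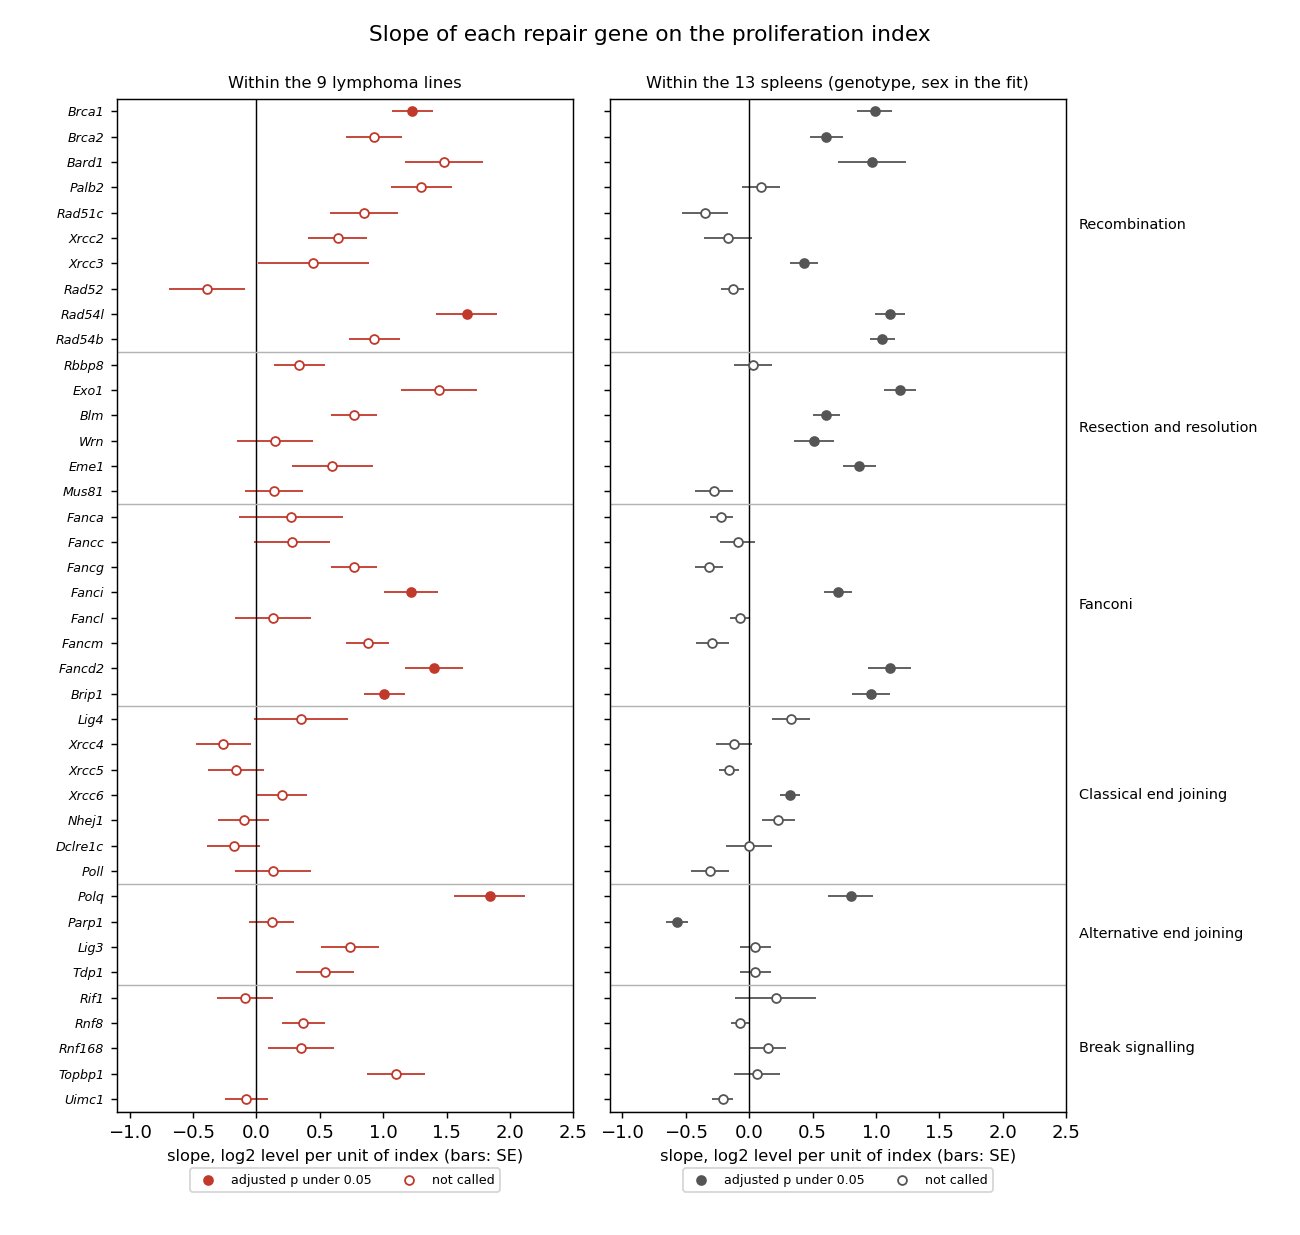
Slopes of the 40 genes on the proliferation index are drawn with their SE for the 9 lines (left) and the 13 spleens (right), and filled points were called at a limma adjusted p under 0.05. The filled points are recombination, resection, Fanconi, Polq and Xrcc6, and Parp1 is the only one left of 0. In the lines the filled points are not called without line 2.

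With the index as a covariate, much of the difference between lines and spleens was no longer called. This fit gave each gene 1 slope on the index for lines and spleens together. At equal index 8 of the 40 genes were higher in the lines than in KO spleens and 2 were lower, where 27.4% of all genes were higher, 18.3% lower and 45.7% either. The median log2 difference was 0.26, beside 0.29 over all genes. Higher were Xrcc4 (1.39 ± 0.24, SE; limma adjusted p = 0.000105), Xrcc5 (0.96 ± 0.22), Lig4 (1.24 ± 0.38), Xrcc3 (1.27 ± 0.44), Brip1 (0.67 ± 0.20), Fancl (0.81 ± 0.29), Rad52 (0.87 ± 0.30) and Parp1 (0.80 ± 0.24). Lower were Rad54l (-0.98 ± 0.28) and Polq (-1.33 ± 0.40). Brca1 stood at 0.21 ± 0.22, where it was 2.16 without the covariate, and Fancd2 at 0.21 ± 0.28, where it was 2.44.

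Against WT spleens at equal index 4 were higher and 3 lower, where 21% of all genes were higher, 15.2% lower and 36.2% either. The median was 0.17, beside 0.29 over all genes. Higher were Xrcc4 (1.72 ± 0.31; limma adjusted p = 0.000229), Xrcc5 (1.36 ± 0.28), Fancl (1.04 ± 0.37) and Parp1 (0.87 ± 0.31). Lower were Palb2 (-1.53 ± 0.49), Rad54l (-1.18 ± 0.36) and Polq (-1.58 ± 0.51). Since no line shares an index with a spleen, these values extend the common slope beyond the measured ranges. Fitted apart, the slopes in lines and in spleens were 1.30 and 0.09 for Palb2, 1.66 and 1.11 for Rad54l and 1.84 and 0.80 for Polq. They were 0.12 and -0.57 for Parp1, 0.13 and -0.07 for Fancl, -0.26 and -0.12 for Xrcc4 and -0.16 and -0.16 for Xrcc5. The part of a common slope in the values at equal index was not tested. With an index of mitosis genes only, 4 genes were higher against WT spleens and none lower.

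Between spleens the study asks what loss of Atm does without a tumour. With sex in the fit, 1 of the 40 repair genes was higher in KO spleens and 1 was lower, where 1.64% of all genes were higher, 2.16% lower and 3.8% either. Dclre1c read 1.17, 1.50 and 1.61 in KO spleens, against 0.12, 0.51 and 0.80 in WT spleens. Every KO spleen lay above every WT spleen, and the difference was 0.88 ± 0.15 (SE; limma adjusted p = 0.00919). The rise rests on its brightest probe. The other probes overlapped between the genotypes, with differences of 0.03 (unadjusted limma p = 0.902) and 0.23 (unadjusted limma p = 0.562). The mean over the 3 probes was 0.38 (limma adjusted p = 0.353, and 0.000494 to 0.353 over all the alternatives).

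Rad52 read -0.54, -0.42 and -0.37 in KO spleens, against -0.12, 0.03 and 0.20 in WT spleens, again without overlap. It was lower in KO spleens by -0.52 ± 0.09 (SE; limma adjusted p = 0.0085). Its other probe read -1.11, -0.89 and -0.83 in KO spleens, against -0.74, -0.47 and -0.39 in WT spleens, a difference of -0.45. Over the alternatives the limma adjusted p for Rad52 ran from 0.00128 to 0.143, past the threshold after median centring (0.0525) and in a fit that pooled the spread of the lines with that of the spleens (0.143). The lines read -0.71, 0.11 and 0.41, across both genotypes.

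The other 38 repair genes were not called between spleens. Fancd2 stood at 0.72 ± 0.32, Polq at 0.65 ± 0.26, Brca1 at 0.64 ± 0.28 and Brca2 at 0.63 ± 0.19 (SE; limma adjusted p 0.0888 to 0.222). Without the sex term Brca2 (0.73), Fanci (0.59), Blm (0.52), Xrcc5 (0.31) and Fancl (0.26) were called higher beside Dclre1c, where 10.5% of all genes were called. Fancl and Xrcc5 read higher in every KO spleen than in every WT spleen (3 of the 40 with Dclre1c, beside 2.22% of all genes). Rnf8 read lower (2 of the 40 with Rad52, beside 2.09%). The other probe of Rnf8 overlapped, at -2.04 to -1.78 in KO spleens and -2.14 to -1.48 in WT spleens. Of the marker lists, 6 of 10 natural killer markers fell in KO spleens, with means of 1.44 to 2.11 in KO, against 2.02 to 2.49 in WT spleens, and the part of these cells was not tested.

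**Figure D5:**
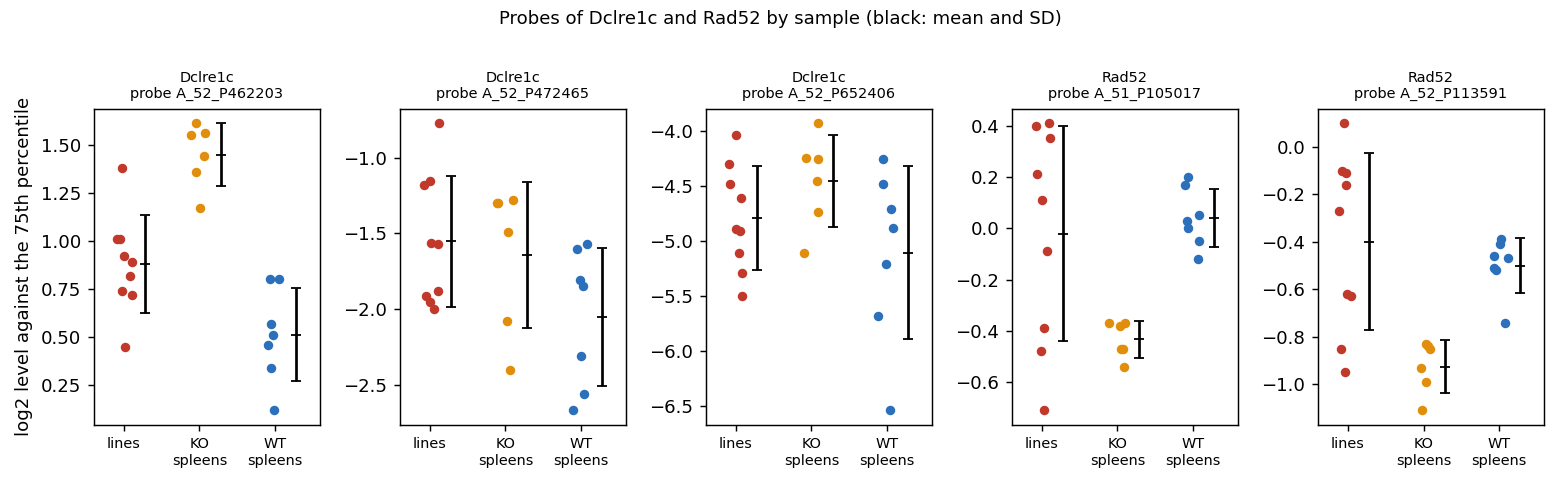
Levels of the 3 probes of Dclre1c and the 2 probes of Rad52 are shown for each sample (log2 against the 75th percentile), with the mean and SD in black. The first probe of Dclre1c separates KO from WT spleens and the others do not, while both probes of Rad52 are lower in KO than in WT spleens.

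Other genes of these pathways were read from a list of 66, of which 60 were tested. In the lines 45 were higher than in KO spleens and 5 lower, with a median of 0.78, and 45 were higher than in WT spleens and 7 lower, with a median of 0.74. Over all tested genes 41.5% were higher and 28.9% lower against KO spleens, with a median of 0.18. Against WT spleens 40.3% were higher and 30.9% lower, with a median of 0.13. The largest increases against KO spleens were those of Rmi2 (2.81 ± 0.21), a partner of Blm, Rad51b (2.50 ± 0.21), a relative of Rad51c, and the helicase gene Helq (2.40 ± 0.16; SE). The largest decreases against KO spleens were those of Faap100 (-0.81 ± 0.21), a core complex subunit, and Herc2 (-0.65 ± 0.14), a ubiquitin ligase of break signalling. Between spleens 1 of the 60 was called, Nbn, a sensor of breaks in the Mre11 complex, higher in KO spleens by 0.39 ± 0.09 (limma adjusted p = 0.0308). Of all tested genes 3.8% were called between spleens.

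Among the lines 5 of these 60 rose with the index and none fell, among them Rad51ap1 (1.55 ± 0.21), Gen1 (1.16 ± 0.18), Fancb (1.12 ± 0.17) and Rpa2 (0.92 ± 0.14; SE). Of all tested genes 0.726% rose with the index among the lines and 0.0726% fell. None of the 17 genes of end joining and signalling on that list was called there. Without line 2 no gene was called, as for the members.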

How the data were processed

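The authors deposited scanner output with the intensity of each spot, background-subtracted by Agilent's Feature Extraction software (10.7.1.1, per the file headers). The deposited value table holds log2 values, the same signal with every probe centred on 0, with column medians of -0.207 to 0.522, and served as an alternative. Control spots (1639 an array) and 1556 flagged spots were left out. Each array was taken to log2 and scaled to its 75th percentile, spots of a probe were averaged, and RefSeq accessions named 26690 of 41174 probes. The brightest probe above background in 6 or more of 22 samples stood for its gene. Repair genes, lists and alternatives were chosen with earlier results of these data known. Every member was named by branch, with full statistics for the largest called changes of a branch and for members whose probes or settings disagree, and up to 3 other pathway genes were named per direction, but 4 for the slopes in the lines, chosen after their values were seen. Some genes are not reported here.

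Fits used limma 3.58.1 in R 4.3.3 and were tested on simulated data. Correlations and their exact permutation p were computed directly, and the p was checked against scipy 1.17.1 on simulated data. Both took 1 value per sample. The 3 groups shared 1 fit. Spleens were fitted with genotype and sex, and slopes on the index within lines and within spleens. The p-values measure the spread between these samples. Normexp used the median signal of the spots, since the files have no mean. Alternatives were other scalings, filters, probe rules, slide as a block and left-out samples. The number of arrays limits the precision.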

Additional observations from a re-analysis of the deposited data

Results flagged for a closer look

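Of 123 sets of values (40 repair genes and the index in 3 groups), 8 (6.5%) had a sample far from the others of its group, where chance gives about 5%. In 4 of these sets the sample was line 2, which was the lowest of the 9 lines for 25 of the 40 genes. Brca2 read 0.40 there, with the next line at 1.29. Rad54b read -0.42, with the next at 0.50, and Brip1 read 0.14. Polq read -3.36, with the next at -1.68. Line 2 also had the lowest proliferation index, 2.52.

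In the spleens, Fancg read 2.34 in KO spleen 4, with the next KO spleen at 1.88, and 1.78 in WT spleen 2, with the next at 2.03. WT spleen 5 read 2.16 for Tdp1, with the next at 1.90, and 0.00 for Rif1, with the next at 0.86.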

How the results depend on the processing

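Against KO spleens 32 to 39 repair genes were called over the alternatives and against WT spleens 30 to 40. The 35 and 33 of the report lay between. Of all tested genes 59% to 80.3% were called against KO spleens over the alternatives, and 55% to 80.1% against WT spleens. Of the values of single repair genes under the alternatives, 2524 kept their side of the threshold, 85 lost the call and 62 gained it. The other 9 changed sign, with a call in the report or under the alternative. Changes of sign between values that were not called count among the 2524. Palb2 against WT spleens, for example, stood at 0.22 in the report and as low as -0.11 under an alternative. Of the 9, those under median centring, which lifts all genes, were to 0.02 for Dclre1c and 0.54 for Uimc1 against KO spleens. Against WT spleens they were to 0.57 for Poll, 0.51 for Rad52, 0.49 for Rnf8 and 0.36 for Uimc1, under the same centring. Parp1 against WT spleens turned to -0.02 under quantile normalisation and -0.05 under normexp with it, and Fancg to -0.03 as the mean of its probes.

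Between spleens 2 genes were called (3.8% of all genes), but 1 under median centring (2.38%) and 1 with the mean of probes (3.93%). In the fit of all samples 1 was called (1.79%), and 7 without the sex term (10.5%). Among the lines 6 slopes were called (0.799% of all genes), but 14 under median centring (2.11%) and 10 under quantile normalisation (1.24%). With normexp 15 were called (2.77%), and 3 with line 8 read from its repeat array (0.356%). None (0) was called without the filter on dim probes, which adds genes to the adjustment, with the slide as a block, without lines 2 and 9, without line 2, or without the 3 lines of the lines-only slide. Unadjusted, 2198 genes had a slope in the lines at p under 0.05. In the spleens 16 slopes were called (15.9% of all genes), but 9 with the slide as a block (6.06%) and 10 without the WT spleen of highest index (5.53%). At equal index 7 genes were called against WT spleens (36.2% of all genes), but 4 with mitosis genes only (35.2%). The settings without line 2, without the lines-only slide and without that WT spleen were chosen after seeing the data. Where no construction is named the cause was not tested. No paired analysis was possible because replicate numbers follow the order of the samples and pair no animals. Between the arrays of line 8 the median difference was 0.22 over the repair genes and 0.33 over all genes.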
